A study of Mus musculus with 2 samples.

Results

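The genes described here act in the transport of heme, its porphyrin precursors or glycine for its synthesis, or take heme's breakdown product further. They are Abcb10, Abcb6, Tmem14c and Slc25a38 at the mitochondrion, Abcg2 and Flvcr1 as exporters, Slc48a1 and Flvcr2 on the import side, and the biliverdin reductases Blvrb and Blvra. The list was set by gene function and not by a threshold on measured values, although it was drawn up with earlier results of these data known. All 10 genes were found among 43346 genes with an Ensembl identifier, 21474 of them protein-coding. The cells were MEL cells, an immortalized mouse erythroleukemia line, kept in 2% dimethyl sulfoxide (DMSO) for 5 days. PolyA RNA was sequenced from 1 end of each fragment in 2 libraries, numbered replicates 1 and 2 in the labels. By those labels the libraries also share 1 cell sample identifier, so the spread between them may be technical. Every cell analysed here had received DMSO, so no value here measures a response to the treatment. The line stands for red cell precursors only as far as an immortalized leukemia line can.

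Heme is built partly in mitochondria and partly in the cytosol. Glycine enters the mitochondrion for the first step, later intermediates leave for the cytosol, and a porphyrinogen precursor returns to the matrix, where iron is inserted. Heme that is not placed in hemoglobin or another protein can be exported, and heme from degraded proteins can be moved out of the endolysosome. Heme oxygenases open the ring to the alpha isomer of biliverdin, which Blvra reduces, while Blvrb reduces the beta isomer. A maturing red cell precursor makes far more heme than most cells, and free porphyrin and free heme are both toxic.

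The depth was 26149725 estimated reads in replicate 1 and 14149299 in replicate 2. A gene listed at 0 reads could thus lie as high as 0.115 CPM (reads scaled to library size) in replicate 1 and 0.212 CPM in replicate 2, the limit that 3 counts set, for counting error only. Levels are given as deposited TPM, in which reads are divided by transcript length and scaled to a fixed library total, so that genes can be compared. All 11 erythroid marker genes were at or above 1 TPM in both libraries, with the globin genes Hba-a2 and Hba-a1 highest by mean. Of the markers of other cells, 1 of 12 macrophage genes reached that level (Cd68), 0 of 6 hepatocyte genes, 1 of 7 stem and progenitor genes (Hlf) and 0 of 6 fibroblast genes. The highest hepatocyte marker was Apoa1, with 0.79 TPM in replicate 1 and 0.88 TPM in replicate 2, and the other 5 were listed at 0. The fibroblast markers highest by mean, Col1a1 and Col1a2, were at or below 0.52 TPM in each library.

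Of these genes 6 had a mean of both libraries above 39 TPM and 4 a mean below 8 TPM, with no mean between. By mean level the order was Blvrb, Tmem14c, Abcb10, Abcb6, Abcg2, Slc48a1, Flvcr1, Slc25a38, Blvra and Flvcr2. The gap between Slc48a1 and Flvcr1 was 5.02-fold in the means. In all, 9 of the 10 genes reached 1 TPM in both libraries, against 45.5% of all protein-coding genes. Their median level was 40.3 TPM, beside 0.6 TPM over all protein-coding genes and 15.5 TPM over the protein-coding genes at or above 1 TPM in both libraries. In bulk RNA such as this, fewer cells of a type and less RNA per cell cannot be told apart. In this order 6 of the 9 neighbouring pairs overlapped in range between libraries. The pairs that did not overlap were Slc48a1 over Flvcr1, Flvcr1 over Slc25a38 and Blvra over Flvcr2. For Flvcr1 over Slc25a38, however, the deposited credibility bounds overlapped in replicate 2. They ran from 6.76 to 8.51 TPM for Flvcr1 and from 6.17 to 9.21 TPM for Slc25a38. Over transcripts with a complete coding sequence alone, Flvcr1 lay below Slc25a38 by mean, at 3.23 against 3.88 TPM. The same rank was held by 6 genes in both libraries, while Tmem14c was first in replicate 1 and Blvrb first in replicate 2.

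**Figure D1:**
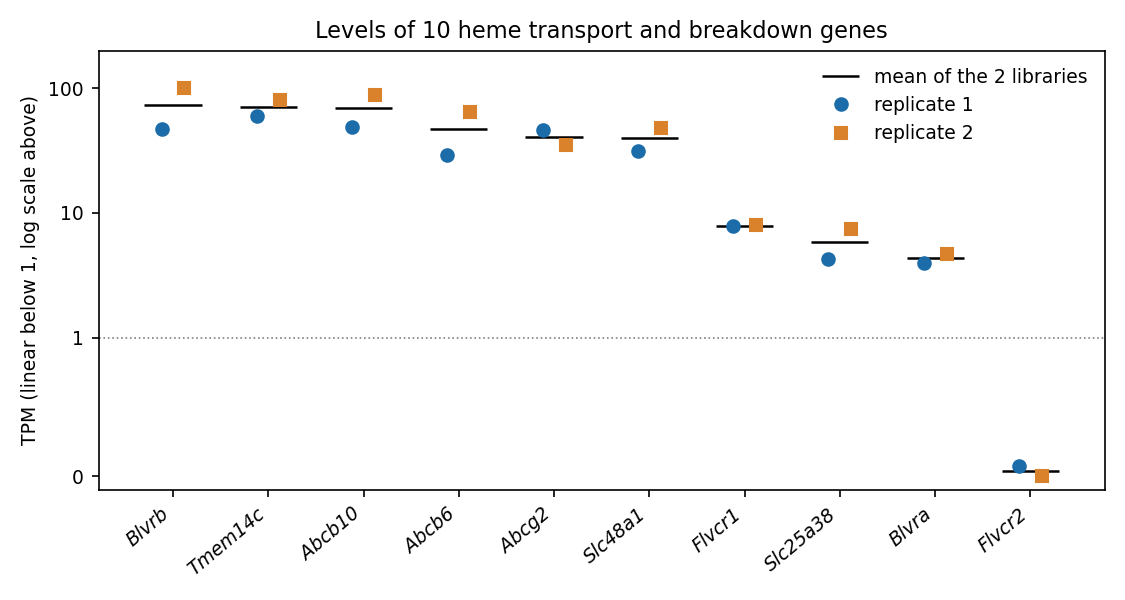
Level of each of the 10 genes in TPM (linear below 1, logarithmic above) in both libraries, with the mean as a bar. The upper 6 genes have means from 39.7 TPM (Slc48a1) to 73.5 TPM (Blvrb), and a gap separates them from Flvcr1, Slc25a38 and Blvra, with Flvcr2 at or near 0.

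The mitochondrial group held the largest share of this RNA, with 4 genes against 2 in each other group. Summed over Abcb10, Abcb6, Tmem14c and Slc25a38, replicate 1 had 142.5 TPM and replicate 2 had 241 TPM, which were 51.0% and 55.2% of the TPM of all 10 genes in the same libraries. Tmem14c, an inner membrane protein needed to bring protoporphyrinogen IX into the matrix, lies on chromosome 13 at 41016292 to 41022586, plus strand (mm10). It had 60.1 TPM in replicate 1 and 80.6 TPM in replicate 2, from 1311 and 995 reads, with a mean of 70.4 ± 14.6 TPM (SD, n = 2). Abcb10 (chromosome 8, 123952459 to 123983122, minus strand) encodes an ATP-binding cassette transporter of the inner mitochondrial membrane that red cell precursors need for hemoglobin synthesis. It had 49.1 TPM in replicate 1 and 88.6 TPM in replicate 2, with a mean of 68.8 ± 27.9 TPM (SD, n = 2). With 5067 reads in replicate 1 and 5171 in replicate 2, Abcb10 had the most reads of the 10 genes in both libraries, although its level per length was below that of Tmem14c by mean. Both genes have a single annotated transcript, so no reads had to be divided among isoforms. On the strand opposite Abcb10 the annotation lists Gm45890, which shares 444 exon bases with it and was not among the quantified genes. The protein-coding Gm20388, also on that strand, overlaps the span of Abcb10 with 0 shared exon bases. Gm20388 had 0 reads in replicate 1 and 230 in replicate 2.

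Abcb6 (chromosome 1, 75171717 to 75180392, minus strand) encodes a porphyrin transporter placed in the outer mitochondrial membrane and in other membranes, which in humans also carries the Langereis blood group antigen. Its level was 29.1 TPM in replicate 1 and 64.5 TPM in replicate 2, a mean of 46.8 ± 25.0 TPM (SD, n = 2). In gene TPM, Abcb10 stood above Abcb6 by 1.69-fold in replicate 1 and 1.37-fold in replicate 2, though the 2 genes overlapped in range. Over complete coding transcripts alone, a measure chosen after the data were seen, Abcb6 had 10.1 and 25.5 TPM in replicates 1 and 2. On that measure Abcb6 lay further below Abcb10, and their ranges did not overlap. Slc25a38 (chromosome 9, 120110374 to 120124504, plus strand), the mitochondrial carrier that brings in glycine for the first step of heme synthesis, was far lower. It had 4.27 TPM in replicate 1 and 7.43 TPM in replicate 2, from 123 and 144 reads, with a mean of 5.85 ± 2.23 TPM (SD, n = 2). Loss of this carrier causes a sideroblastic anemia in humans. Abcb10 exceeded Slc25a38 by 11.5-fold in replicate 1 and by 11.9-fold in replicate 2. In gene TPM that ratio between the carriers was nearly equal in the libraries, although both genes were higher in replicate 2. Over complete coding transcripts alone, Slc25a38 had 2.38 TPM in replicate 1 and 5.38 TPM in replicate 2, with Abcb10 unchanged. The ratio was then larger in both libraries and less equal between them.

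Of the exporters, Abcg2 was the higher. Abcg2 (chromosome 6, 58584523 to 58695676, plus strand) encodes a plasma membrane transporter that removes protoporphyrin and many drugs, carries the Junior blood group antigen in humans and gives stem cells the dye-efflux property of side population cells. It had 46.7 TPM in replicate 1 and 35.2 TPM in replicate 2, a mean of 40.9 ± 8.11 TPM (SD, n = 2). Among the 7 stem and progenitor markers, the highest by mean were Hlf, with 9.43 and 8.79 TPM in replicates 1 and 2, and Mecom, with 0.63 and 0.64 TPM. Procr was listed at 0 in both libraries. The part of such cells in the Abcg2 level was not tested.

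RefSeq gives Abcg2 more than 1 transcription start, and by the estimates nearly all of its RNA lay on transcripts from the third. The windows shown are 250 bases before to 50 after each start, from RefSeq on GRCm38.p6 (the mm10 assembly), and capitals mark matches to CCNCNCCC, the core letters of a CACCC or GC box, on either strand, and to TGACGTCA, a full cAMP response element. They are shown because, by the estimates, these starts carried very different amounts of RNA. In order along the plus strand they lie at chr6:58584283-58584582, chr6:58596422-58596721 and chr6:58640296-58640595.
Abcg2 start 1: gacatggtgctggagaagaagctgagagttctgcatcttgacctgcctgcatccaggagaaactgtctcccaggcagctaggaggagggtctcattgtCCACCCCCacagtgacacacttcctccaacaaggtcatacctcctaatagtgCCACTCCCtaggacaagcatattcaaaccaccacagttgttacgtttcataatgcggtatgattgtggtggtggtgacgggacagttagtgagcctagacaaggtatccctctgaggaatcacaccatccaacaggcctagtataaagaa
Abcg2 start 2: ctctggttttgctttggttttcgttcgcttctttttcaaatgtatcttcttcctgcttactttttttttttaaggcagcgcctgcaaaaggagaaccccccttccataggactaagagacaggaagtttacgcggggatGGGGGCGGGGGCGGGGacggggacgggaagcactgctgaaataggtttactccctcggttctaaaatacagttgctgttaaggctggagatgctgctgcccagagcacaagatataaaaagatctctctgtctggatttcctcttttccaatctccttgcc
Abcg2 start 3: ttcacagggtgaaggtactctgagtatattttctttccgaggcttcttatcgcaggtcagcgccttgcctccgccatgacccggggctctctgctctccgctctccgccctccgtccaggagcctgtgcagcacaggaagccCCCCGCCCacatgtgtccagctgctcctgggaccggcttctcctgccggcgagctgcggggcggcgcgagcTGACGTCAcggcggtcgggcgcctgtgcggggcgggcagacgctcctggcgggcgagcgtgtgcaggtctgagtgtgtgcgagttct

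Transcripts that begin within 100 bases of the third start had 44.3 TPM in replicate 1 and 34.3 TPM in replicate 2, or 95.0% and 97.5% of the gene in the same libraries (mean 96.2% ± 1.78, SD, n = 2). By estimated reads their share was 97.1% in replicate 1 and 98.7% in replicate 2. The transcript from the first start (Abcg2-209, 464 bases, incomplete coding sequence) and the one from the second (Abcg2-201) had 0 estimated reads in both libraries. Abcg2-201 was quantified with a length of 2492 bases, against 5717 bases in the annotation used for its start. These zeros depend on those transcript models and on the estimated division of reads. Transcripts that begin elsewhere in the gene held the rest, 5.03% and 2.51% of TPM in replicates 1 and 2. The window of the third start was 67.0% GC with 28 CpG pairs, whereas those of the first and second starts were 50% and 48.0% GC with 3 and 10 pairs. Over all 32851 mouse promoter windows of this length, the median was 52.7% GC and 7 CpG pairs. The third window held TGACGTCA on the plus strand from 37 to 30 bases before the start, as did 1.79% of all windows on either strand. It held 1 match to CCNCNCCC, 108 to 101 bases before the start, against 2 matches in the first window and 4 in the second, where neighbouring matches overlap. A match is a description of letters only, and binding was not measured.

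**Figure D2:**
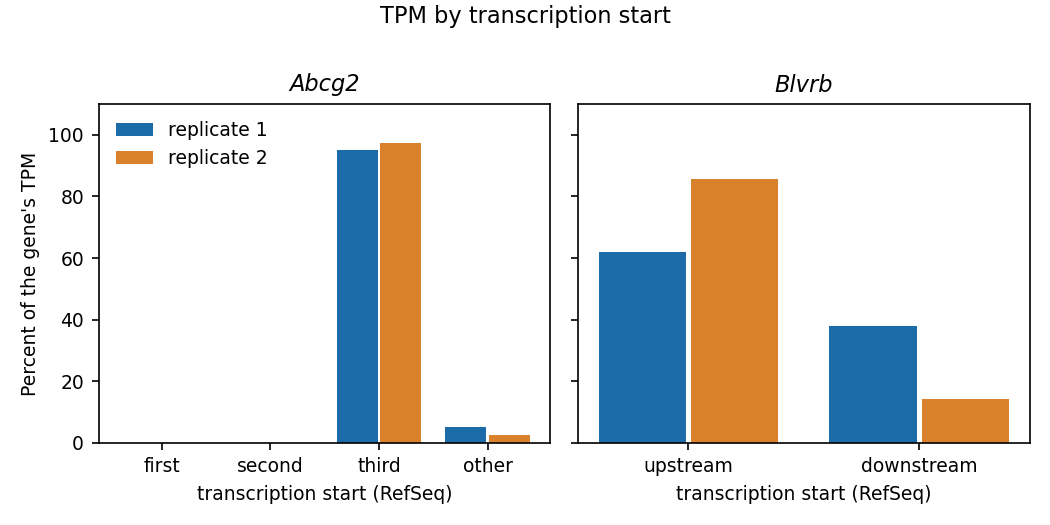
Percent of each gene's TPM on transcripts from each RefSeq transcription start (horizontal axis) for Abcg2 on the left and Blvrb on the right, replicates 1 and 2 side by side. The third start of Abcg2 holds 95.0% and 97.5%, the first and second hold none, and the upstream start of Blvrb holds 62.0% in replicate 1 and 85.6% in replicate 2.

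The leading Abcg2 transcript, Abcg2-202 (2178 bases, 16 exons, complete coding sequence), had nearly the same level in both libraries, 30.95 TPM in replicate 1 and 31.2 TPM in replicate 2. It took 66.3% of the gene in replicate 1 and 88.6% in replicate 2. In TPM, the difference in the gene's total thus lay with other transcripts. By estimated reads, Abcg2-202 held 83.3% of the gene in replicate 1 and 89.1% in replicate 2. Abcg2-207, a 603-base fragment with an incomplete coding sequence, was at 7.86 TPM in replicate 1 and at 0 in replicate 2. Abcg2-203, a transcript with a retained intron, was at 3.96 TPM in replicate 1 and 0.38 TPM in replicate 2. Abcg2-206, annotated as a target of nonsense-mediated decay, differed in the other direction, with 1.56 TPM in replicate 1 and 2.75 TPM in replicate 2.

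Flvcr1 and Flvcr2 are related membrane proteins first studied in heme transport and later also tied to choline, Flvcr1 as an exporter that red cell precursors need and Flvcr2 on the import side. Flvcr1 (chromosome 1, 191005847 to 191026158, minus strand) had 7.90 TPM in replicate 1 and 7.93 TPM in replicate 2, with a mean of 7.92 ± 0.0212 TPM (SD, n = 2). Abcg2 exceeded it by 5.91-fold in replicate 1 and 4.44-fold in replicate 2. Flvcr2 (chromosome 12, 85746539 to 85813585, plus strand) had 6 reads and 0.07 TPM in replicate 1 and 0 reads in replicate 2. The 6 reads give an exact Poisson 95% interval of 0.0268 to 0.159 TPM, and 0 reads in replicate 2 allow up to 0.0646 TPM, both for counting error only. Flvcr1 was 113-fold above Flvcr2 in replicate 1 and at least 123-fold higher in replicate 2.

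The equal totals of Flvcr1 covered an unequal mix of transcripts. Flvcr1-201 (4040 bases, 10 exons, complete coding sequence) had 2.63 TPM in replicate 1 and 3.26 TPM in replicate 2, or 33.3% and 41.2% of the gene in the same libraries. Flvcr1-206, a retained intron transcript of 3029 bases that begins inside the gene, led in replicate 1 with 3.96 TPM (50.1%) and had 1.46 TPM (18.4%) in replicate 2. Flvcr1-203, annotated as a nonsense-mediated decay target of 3666 bases, had 1.03 TPM (13.0%) in replicate 1 and 2.93 TPM (37.0%) in replicate 2. Transcripts with a complete coding sequence summed to 2.92 TPM in replicate 1 and 3.53 TPM in replicate 2, so 36.9% and 44.6% of the gene. An antisense gene, A230020J21Rik, shares 809 exon bases with Flvcr1. It had 0 reads in replicate 1 and 17 in replicate 2, and the use of strand in counting is not stated in the sources used here.

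Slc48a1 (chromosome 15, 97778520 to 97792692, plus strand), also called HRG1, moves heme from the endolysosome into the cytosol. It had 31.6 TPM in replicate 1 and 47.9 TPM in replicate 2, a mean of 39.7 ± 11.5 TPM (SD, n = 2). Slc48a1-201 carried 100% of the gene in replicate 1 and 98.7% in replicate 2. Slc48a1 stood above Flvcr1 by 3.99-fold in replicate 1 and 6.04-fold in replicate 2. In macrophages this transporter returns heme from engulfed red cells. The 12 macrophage markers summed to 4.07 TPM in replicate 1 and 8.48 TPM in replicate 2, most of it from Cd68 (3.17 and 5.66 TPM) and Itgam (0.85 and 2.74 TPM). Of the 12, 7 were listed at 0 in both libraries, including Marco, Mrc1, Vcam1, Spic and the C1q genes C1qa, C1qb and C1qc. Hdac7, on the opposite strand, shares 29 exon bases with Slc48a1 and had 57.7 TPM in replicate 1 and 147 TPM in replicate 2.

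The biliverdin reductases were far apart in level. Blvrb reduces the beta isomer of biliverdin as well as flavins and is abundant in red cells, while Blvra reduces the alpha isomer that heme oxygenases produce. Blvrb (chromosome 7, 27447978 to 27466144, plus strand) had 46.95 TPM in replicate 1 and 100.1 TPM in replicate 2, from 976 and 1250 reads, with a mean of 73.5 ± 37.6 TPM (SD, n = 2). Blvra (chromosome 2, 127070665 to 127097084, plus strand) had 3.99 TPM in replicate 1 and 4.69 TPM in replicate 2, from 105 and 69 reads, with a mean of 4.34 ± 0.495 TPM (SD, n = 2). Blvrb exceeded Blvra by 11.8-fold in replicate 1 and 21.3-fold in replicate 2. The direction was the same in both libraries, and the size differed with the Blvrb level.

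Blvrb is also annotated with more than 1 start, and here both were in use by the estimates. The upstream window (chr7:27447728-27448027) and the downstream one (chr7:27452168-27452467), both on the plus strand of GRCm38.p6, are shown since the share between these starts differed between libraries. Capitals mark CCNCNCCC on either strand.
Blvrb upstream start: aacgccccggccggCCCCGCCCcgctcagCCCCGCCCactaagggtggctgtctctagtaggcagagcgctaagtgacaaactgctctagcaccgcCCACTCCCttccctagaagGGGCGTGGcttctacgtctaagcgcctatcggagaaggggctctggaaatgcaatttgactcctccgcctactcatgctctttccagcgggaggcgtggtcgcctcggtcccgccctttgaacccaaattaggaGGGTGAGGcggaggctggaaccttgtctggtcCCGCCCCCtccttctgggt
Blvrb downstream start: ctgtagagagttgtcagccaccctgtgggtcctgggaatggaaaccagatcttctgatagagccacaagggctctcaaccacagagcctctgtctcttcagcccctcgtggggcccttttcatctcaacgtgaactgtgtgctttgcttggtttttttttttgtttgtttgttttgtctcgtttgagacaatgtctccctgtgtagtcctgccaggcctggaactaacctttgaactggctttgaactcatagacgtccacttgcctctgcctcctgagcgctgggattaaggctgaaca

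Transcripts from the upstream start had 29.1 TPM in replicate 1 and 85.7 TPM in replicate 2, or 62.0% and 85.6% of the gene in the same libraries. Those from the downstream start had 17.8 TPM in replicate 1 and 14.4 TPM in replicate 2, or 38.0% and 14.4% (mean 26.2% ± 16.7, SD, n = 2). In TPM, the higher total Blvrb of replicate 2 lay with the upstream start, while the downstream level was lower there than in replicate 1. The split between the starts rests on an estimated division of reads among overlapping transcripts. Estimated reads gave the downstream start 319 of the gene's reads in replicate 1 and 145.5 in replicate 2. The upstream window was 63.0% GC with 20 CpG pairs and held 6 matches to CCNCNCCC, and the downstream one was 50% GC with 5 CpG pairs and 0 matches. Blvrb-202 (782 bases) carried the downstream share, and Blvrb-201 (1028 bases) and Blvrb-203 (951 bases) carried most of the upstream share. Blvrb-201 had 12.5 TPM in replicate 1 and 48.2 TPM in replicate 2. Blvrb-203 had 16.0 TPM in replicate 1 and 35.8 TPM in replicate 2. Each has a complete coding sequence.

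RefSeq windows were found for 9 of the 10 genes, 12 windows in all. AGATAA, which is among the forms of a GATA box, was in 0 of the 12 windows on either strand and in 11.2% of all mouse windows. Other forms of that box were not searched, so the absence applies to AGATAA only. The downstream Blvrb window, for example, holds TGATAG, which was not counted or marked. CCNCNCCC was in 9 of the 12 and in 49.5% of all. TGACNNNGC, the core of an antioxidant response element, was in the windows of Blvra, Flvcr1 and Slc25a38, so 3 of 12, and in 12.4% of all. These windows end 250 bases before the start, and more distant elements were not looked at.

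The genes had 44 annotated transcripts, of which 32 had reads and 23 held at least 5% of their gene in either library. None of the 10 was led by a transcript outside the protein-coding class in the mean of both libraries. Nonsense-mediated decay targets count as outside that class. Of the protein-coding genes at or above 1 TPM, 17.3% were led by a transcript outside it. For 3 of the 10 the outcome was fixed by a single annotated transcript, and Flvcr2 lies below 1 TPM. In replicate 1 alone Flvcr1 was led by its retained intron transcript. How much of a gene is full-length coding RNA depended on whether shares were taken per length or by reads. Abcb6-206, a 416-base transcript with an incomplete coding sequence at the 3′ end of Abcb6, held 51.5% of TPM in replicate 1 and 50.6% in replicate 2, but 11.6% of estimated reads in both. The full Abcb6-201 (2966 bases, 19 exons) held 34.6% and 39.5% of TPM and 61.1% and 71.1% of reads in replicates 1 and 2. Retained intron transcripts of Abcb6 held 27.3% of its reads in replicate 1 and 17.3% in replicate 2, with Abcb6-203 the largest. The annotation also lists Gm29253, which shares 2932 exon bases with Abcb6 on the same strand and had 0 reads in both libraries.

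Slc25a38 showed the same gap between the measures. Slc25a38-201 (1791 bases, complete) held 55.7% of TPM in replicate 1 and 72.4% in replicate 2, against 82.0% and 89.4% of reads. The short Slc25a38-207, without a coding sequence, held 35.4% and 21.8% of TPM in replicates 1 and 2. Slc25a38-203 held 8.85% in replicate 1 and 0 in replicate 2, and Slc25a38-205, a decay target, held 0 in replicate 1 and 5.79% in replicate 2. Blvra was led by Blvra-201 (1160 bases) with 87.2% and 89.1% of TPM, and the incomplete Blvra-203 held 9.93% and 10.9%, in replicates 1 and 2. Counted over complete coding transcripts alone, which was chosen after the data were seen, Abcg2 averaged 31.1 ± 0.177 TPM, Abcb6 17.8 ± 10.9 TPM, Slc25a38 3.88 ± 2.12 TPM, Blvra 3.83 ± 0.495 TPM and Flvcr1 3.23 ± 0.431 TPM (SD, n = 2 each). On that measure the order by mean after Abcb10 was Slc48a1, Abcg2, Abcb6, Slc25a38, Blvra, Flvcr1 and Flvcr2. Reads of short, overlapping transcripts are divided by an estimate, so the share of any single one is uncertain.

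**Figure D3:**
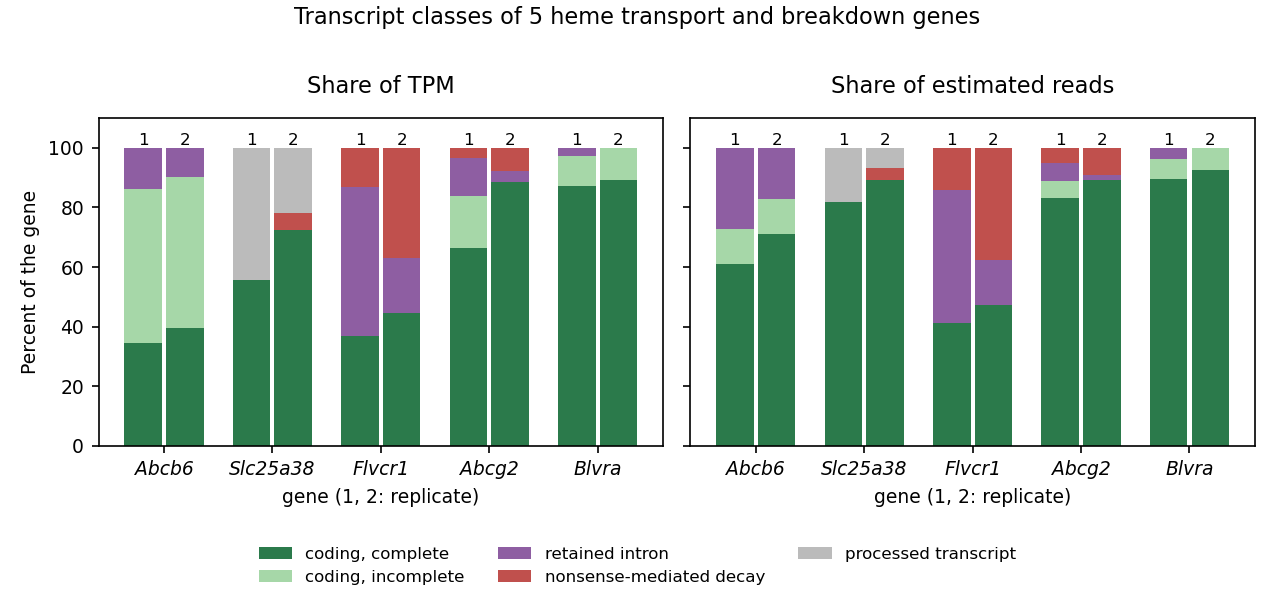
Percent of 5 genes on each class of annotated transcript, by TPM on the left and by estimated reads on the right, with replicates 1 and 2 as adjacent bars. Complete coding transcripts hold 34.6% and 39.5% of Abcb6 by TPM but 61.1% and 71.1% by reads, and retained intron transcripts hold 50.1% of Flvcr1 TPM in replicate 1 against 18.4% in replicate 2.

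Most of these genes were lower in replicate 1 than in replicate 2. The log2 ratio of replicate 1 over replicate 2, from reads scaled by the trimmed mean of M values (TMM), was below 0 for 7 of the 9 genes with a mean of at least 10 reads, against 50.2% of all 13522 genes. It was −0.99 for Blvrb, −0.93 for Abcb6, −0.86 for Slc25a38, −0.66 for Abcb10, −0.40 for Slc48a1, −0.24 for Tmem14c, −0.03 for Blvra, 0.08 for Flvcr1 and 0.27 for Abcg2. The median was −0.40, beside −0.01 over all genes. With 1 library against 1 there is no test of such a ratio. None of the 9 was past 2-fold, higher or lower, whereas 16.5% of all genes were past 2-fold higher and 15.0% past 2-fold lower. Blvrb and Abcb6 pass 2-fold lower when the ratio is taken from deposited TPM. The sign of Flvcr1 flips to −0.17 with scaling by total reads and to −0.01 from deposited TPM, and that of Blvra to 0.03 with no filter on reads. The deposited credibility bounds of the libraries, of a level not stated in the sources used here, were apart for 7 of the 9 genes and overlapped for Flvcr1 and Blvra. They were apart for 71.2% of protein-coding genes at or above 1 TPM. For Abcb6 the bounds ran from 24.8 to 30.7 TPM in replicate 1 and from 54.0 to 65.0 TPM in replicate 2. The bounds surround the deposited posterior mean of TPM, and some deposited TPM lay outside them. Abcb10 in replicate 2 had 88.6 TPM, with bounds from 79.3 to 83.8 TPM.

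The GC content of transcripts moved with this ratio. Over the 8893 protein-coding genes that averaged 100 reads or more, Spearman's rho between GC content and the ratio was −0.78, across genes that share the same libraries and depth and are not independent. The trend lay at 0.65 for 45% GC and at −0.58 for 55% GC. The 9 genes had a median GC content of 53.4%, beside 50.2% over the genes of the trend, with Abcg2 (43.2%) and Flvcr1 (43.5%) lowest and Blvrb (58.1%) highest. With the trend removed, the median ratio of the 9 genes was −0.19. Blvrb then stood at −0.13 and Slc25a38 at −0.19. Slc48a1 stood at 0.29, above 0. Abcg2 stood at −0.56 and Flvcr1 at −0.72, both below 0. Abcb6 stood at −0.55, Abcb10 at −0.24, Blvra at −0.07 and Tmem14c at 0.03. Within Flvcr1, GC content was 39.1% for the retained intron transcript, 44.1% for the decay target and 45.5% for Flvcr1-201. The size of the difference between libraries did not follow that order. Flvcr1-201, the highest in GC content, differed less (2.63 and 3.26 TPM in replicates 1 and 2) than the decay target (1.03 and 2.93 TPM). The part of GC content in the level of any 1 gene was not tested.

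**Figure D4:**
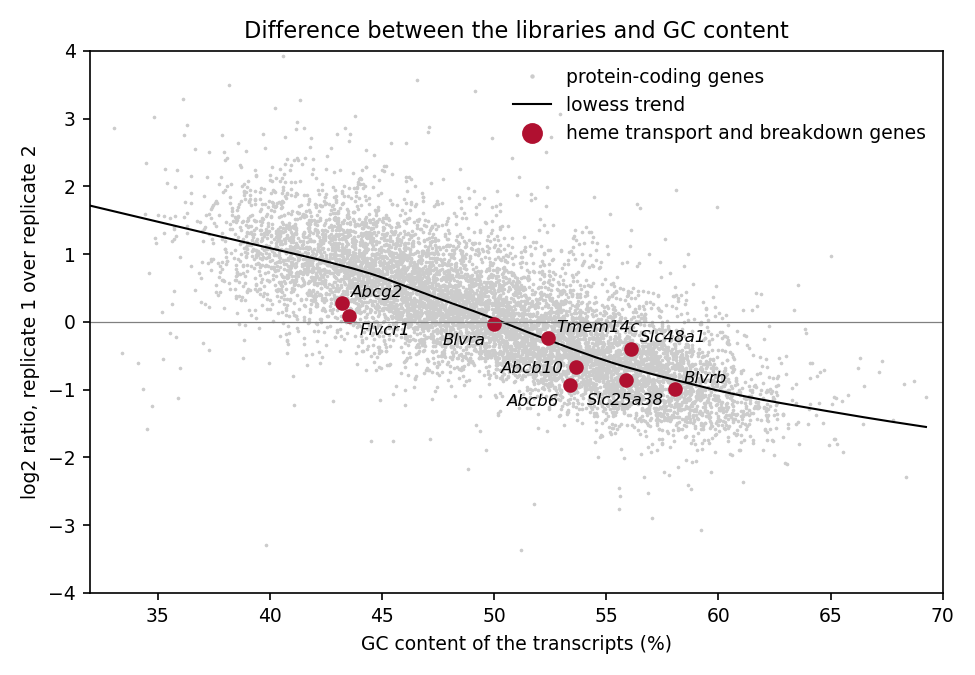
Log2 ratio of replicate 1 over replicate 2 against the GC content of a gene's transcripts in percent, for protein-coding genes that averaged 100 reads or more (grey), their lowess trend (line) and the 9 heme transport and breakdown genes with a ratio (red). Abcg2 and Flvcr1, at 43.2% and 43.5% GC, lie below the trend, and Blvrb, at 58.1% GC, lies near it.

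Around these genes, 18 of 23 other heme handling genes were at or above 1 TPM in both libraries, with a median of 17.8 TPM. The highest were Snx3, which recycles the transferrin receptor, with 376 TPM in replicate 1 and 320 TPM in replicate 2, and Glrx5, a mitochondrial glutaredoxin of iron-sulfur cluster synthesis, with 259 and 283 TPM. Ugt1a1, which conjugates bilirubin in the liver, and Hebp2, a heme-binding protein, were listed at 0 in both. Hmox1, the inducible heme oxygenase, had 7.35 TPM in replicate 1 and 21.2 TPM in replicate 2, a mean of 14.3 ± 9.77 TPM (SD, n = 2). Hmox2, the constitutive form, had 12.4 TPM in replicate 1 and 73.8 TPM in replicate 2, a mean of 43.1 ± 43.4 TPM (SD, n = 2), so the order of Hmox2 and Blvrb was the same in both libraries while the spread of Hmox2 was as large as its mean. By reads scaled with TMM, the log2 ratio of replicate 1 over replicate 2 was −1.30 for Hmox1 and −0.98 for Hmox2. Of the 19 genes of this list with a ratio, 0 were past 2-fold higher and 5 past 2-fold lower, with a median of −0.42, beside 16.5% higher and 15.0% lower over all genes. All 9 heme synthesis genes were at or above 1 TPM, with a median of 182 TPM. Alas2, the erythroid enzyme of the first step that uses the glycine Slc25a38 brings in, had 1060 TPM in replicate 1 and 2680 TPM in replicate 2. Fech, which inserts iron, had 199 and 362 TPM in replicates 1 and 2. Their ratios were −0.93 and −0.68, so they were lower in replicate 1 as most of the transporters were.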

How the data were processed

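Per the labels and the deposited file lists, reads of each library were placed on mm10 and quantified against GENCODE M4. The tools and their versions are not stated in the sources used here. Per the file headers, the authors deposited expected counts (estimated reads, not whole where shared and not scaled), TPM, its posterior mean, FPKM and the percent of a gene held by each transcript. Estimation splits reads among similar sequences, and short transcripts get high TPM from few reads.

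GENCODE M21 on mm10 supplied symbols, transcript classes and coordinates by Ensembl ID (42462 of 43346 genes matched). Numeric-identifier rows (26248) held 0.0294% and 0.0465% of reads in replicates 1 and 2 and name no gene; these and 97 spike-in rows stayed out of the ratios. Detection was 1 TPM in both libraries. Expected counts were rounded; ratios used TMM factors (0.917 and 1.09; edgeR 4.0.16, R 4.3.3), a prior count of 1 and a mean of at least 10 reads. DESeq2 1.42.0 size factors were an alternative. The trend with GC content was fitted by lowess (span 0.3, 3 iterations, statsmodels 0.14.6, Python 3.11.15). RefSeq starts were matched to transcripts within 100 bases. With 1 group no test between conditions was possible, and scripts were checked on simulated data. Named were all 10 genes, their transcripts at 5% or more, Hmox1, Hmox2, the 2 highest and 2 lowest other heme handling genes, Alas2, Fech, and the 2 highest markers of each cell type where levels are given. The genes, lists and motifs were chosen with earlier results of these data known; starts, motifs and overlaps were added after seeing the data.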

Additional observations from a re-analysis of the deposited data

How the results depend on the processing

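The median level of the 10 genes (40.3 TPM) was 68.6 TPM when TPM was rescaled over protein-coding nuclear genes and 49.3 TPM without the mitochondrial genome, spike-in and numeric rows. It was 24.4 TPM over complete coding transcripts, a setting added after seeing the data, and ranged from 30.3 to 41.55 TPM with 1 library left out. The count past 2-fold lower in replicate 1 (0) was 3 with scaling by total reads, 2 with deposited TPM, 1 with a filter of 50 reads (Blvrb) and 4 at 1.5-fold. Without a filter, 1 gene was past 2-fold higher (Flvcr2, 6 reads against 0). Total reads and deposited TPM moved the median ratio of all genes to −0.26 and −0.21, and no filter moved it to 0.13. Without replicate 2, 1 gene was led by a transcript outside the protein-coding class. Under the alternatives that keep both libraries, 40 single-gene levels moved by less than the SD between libraries and 20 by more, as did 5 shares of a leading transcript. Detection held for 9 genes under each limit except 5 TPM, where it held for 7. No paired analysis was possible because there was 1 group. Depth limits Flvcr2, Blvra and Slc25a38 most.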
